A study of Homo sapiens with 8 samples.

Results

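The genes described here are 56 human genes that copy DNA and supply the nucleotides for it, taken by symbol from the 17687 gene symbols that the array's annotation gave. Each of the 56 was measured by 1 transcript cluster, a group of probes that reports 1 gene, so no choice between clusters was needed. They cover regulators of S-phase entry (5 genes), origin recognition and licensing (6), MCM proteins (8), origin firing and the GINS complex (7), polymerases and primase (7), the sliding clamp, clamp loader and RPA (8), flap removal and ligation (2), nucleotide supply and uracil removal (6), histone supply and methylation maintenance (5) and fork protection (2). RNA came from 8 xenografts of SK-OV-3, a human ovarian cancer line, raised in nude mice, with 1 Affymetrix array for each tumour. In 4 tumours the cells carried the pIND_BORA vector, which overexpresses BORA, and in 4 they carried the empty vector pIND_EV (EV). BORA is a cofactor of Aurora A in the activation of PLK1, a kinase of mitotic entry. By their labels all 8 tumours share the line, the vector backbone, the host strain and growth as xenografts, but for EV replicate 1 the markers given below raise doubt that it is a tumour of the same kind. Nothing in the labels tells whether each tumour had its own mouse or its own cell pool, nor whether the vector was induced. The p-values therefore rest on the spread between these 8 samples, part of which may be technical.

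Replication origins are marked in G1 by the origin recognition complex, on which CDC6 and CDT1 load the MCM helicase. In S phase the kinases CDK2 and DDK (CDC7 with DBF4) recruit CDC45 and GINS to turn the loaded helicase on, and polymerases with the PCNA clamp copy the strands. Many of these genes are switched on by E2F factors around S-phase entry, so their RNA in a tumour is widely read as a sign of cycling cells. In bulk tumour RNA, fewer cells in S phase and less RNA per cell cannot be told apart.

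The BORA transcript bore out the labels. It measured 12.57, 12.55, 12.91 and 13.001 in BORA tumours 1 to 4, against 6.16, 6.15, 6.89 and 7.32 in EV tumours 1 to 4, on the log2 scale on which all values here are given. The difference was 6.13 (SE 0.27, limma adjusted p = 2.38e-05; two-sided exact permutation p = 0.0286, the smallest that 70 splits allow). Array medians lay between 6.96 and 7.07, and 36.3% to 44.3% of the 17709 annotated clusters were brighter there than 95% of negative control probes, a level called the negative control percentile below. Of the ovarian and epithelial markers, PAX8 lay at 12.03 to 14.32 and EPCAM at 13.52 to 14.76 in all 8 tumours, while WT1, MUC16 and SOX17 lay below that percentile in each. PAX8 was not level, with BORA tumours at 13.86 to 14.32 and EV tumours at 12.03 to 13.68. Limma did not call it (1.10 over 8, adjusted p = 0.199, and 0.79 over 7, adjusted p = 0.121). Over 8 tumours 4.45% of all clusters were higher in BORA without overlap. EV replicate 1 stood apart. It correlated with the other arrays at 0.943 to 0.954 over all clusters, where the other 7 correlated among themselves at 0.981 to 0.992. It exceeded all other tumours in 15 of 17 squamous epithelial markers, whose mean, each gene centred on its 8-tumour mean, was 5.68 there, against -1.04 to -0.55 in the other 7. KRT1, for example, was at 14.15 there and at 4.20 to 4.95 in the others. Of the 11 ovarian and epithelial markers measured, EV replicate 1 was the lowest of the 8 tumours for 5 and the highest for 2. Among the 5 was the keratin gene KRT7, at 10.01 there and at 12.85 to 15.76 in the others. The 2 were KRT19 (17.71, against 15.35 to 17.50) and CDH1 (12.47, against 6.285 to 10.36). Whether this array holds an SK-OV-3 xenograft like the rest cannot be told from the files, and every value over 8 tumours includes it. Each comparison is therefore given over 8 tumours and again without EV replicate 1. Marker lists of other cells did not all stand level. The leukocyte list (11 markers measured) averaged -0.38 to -0.01 in BORA tumours. It averaged -0.24 in EV replicate 1 and 0.18 to 0.50 in EV replicates 2 to 4. Of the 11 markers 7 lay below the negative control percentile in all 8 tumours. Limma called PTPRC, the gene of CD45, lower over 7 tumours (-2.07, adjusted p = 0.0194), but not over 8 (-0.68, adjusted p = 0.803). Differences were positive for 2 of the 11 in each set. CD68, above that percentile in all 8 tumours, was 1 of these (0.35 over 8, 0.38 over 7). The endothelial list was mixed. Of its 10 measured genes 4 (PECAM1, CDH5, ERG and FLI1) had positive and 6 negative differences in both sets. The median was -0.14 in each set. The 6 with negative differences lay below the negative control percentile in all 8 tumours, and the other 4 exceeded it in 2 to 5 tumours. ERG (2.66, adjusted p = 0.00287) and FLI1 (2.65, adjusted p = 0.0485) were called higher over 7 tumours, while CLDN5, TEK and ESAM had -0.54, -0.58 and -0.45. Their part in the results below was not tested.

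Averaged over the 56 replication genes, each centred on its own mean over the 8 tumours, the BORA tumours stood at 0.47, 0.13, -0.07 and -0.08 and the EV tumours at -0.95, 0.09, 0.27 and 0.14 (replicates 1 to 4 in each). EV replicate 1 was lowest by a wide gap, and BORA replicate 1 was highest. The other 3 BORA tumours were close to or below the other 3 EV tumours. The BORA mean was 0.11 ± 0.26 and the EV mean -0.11 ± 0.56 (SD, n = 4 each), a difference of 0.23. Without EV replicate 1 the EV mean was 0.17 ± 0.09 (SD, n = 3), and the difference turned to -0.05. EV replicate 1 alone lay 1.12 below the mean of EV replicates 2 to 4, so that a single tumour set the sign of the difference over 8. The mean over all 17709 clusters, centred in the same way, stayed within -0.01 and 0.01 in every tumour.

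**Figure D1:**
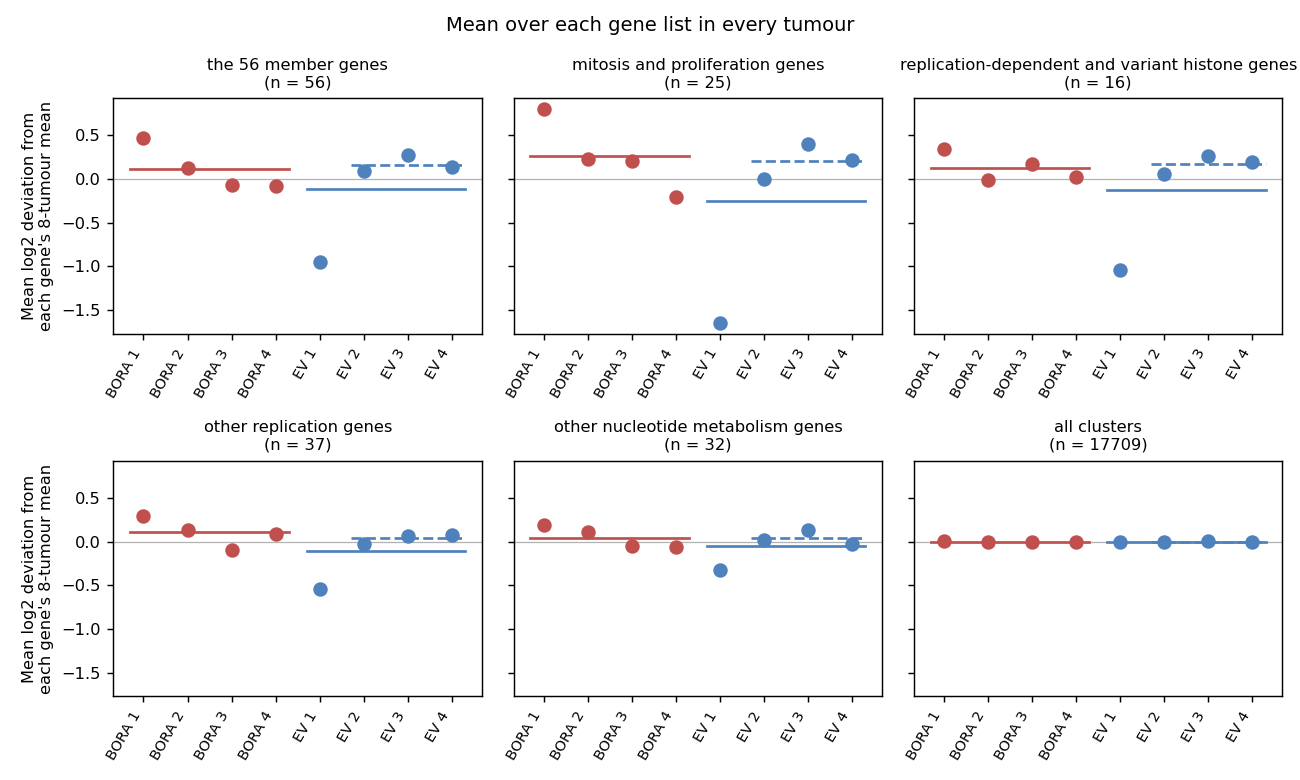
Mean over the genes of each list (each gene centred on its mean over the 8 tumours, log2 units) by tumour, with BORA tumours left of EV tumours; points are tumours, solid lines group means and dashed lines the mean of EV replicates 2 to 4. For the 56 replication genes EV replicate 1 sits at -0.95, while the other 7 tumours lie between -0.08 and 0.47.

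Gene by gene, BORA minus EV passed the threshold for none of the 56. Over 8 tumours limma called 0 of 56 higher and 0 of 56 lower at an adjusted p under 0.05, where 0.102% of all clusters were called higher, 0.0% lower and so 0.102% in either direction. Without adjustment, p was under 0.05 for 2 genes with higher values (LIG1 and MCM8) and 0 with lower ones, against 7.37% and 7.17% of all clusters (14.5% in either direction). Without EV replicate 1 limma again called 0 of 56 higher and 0 of 56 lower, against 0.435% and 0.0791% of all clusters (0.514% in either direction). The unadjusted p was then under 0.05 for 0 genes with higher and 2 with lower values (PRIM1 and UNG), against 7.7% and 7.62% (15.3% in either direction). None of these shares of replication genes exceeded that of all clusters. The smallest adjusted p of any of the 56 was 0.294 over 8 tumours and 0.244 over 7. Over 8 tumours 0 of 56 genes had groups without overlap, against 4.45% of all clusters higher and 4.91% lower in BORA (9.36% in either direction). Over 7 tumours UNG alone had groups without overlap, lower in BORA, against 6.66% of all clusters higher and 7.68% lower (14.3% in either direction).

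The direction of the values turned with EV replicate 1. Over 8 tumours 45 of 56 genes (80.4%) had a value above zero, BORA minus EV, against 46.6% of all clusters, and the median difference was 0.22, against -0.03 over all clusters. Over 7 tumours 18 of 56 (32.1%) lay above zero, against 46.1% of all clusters, and the median was -0.08, against -0.03. Both medians also leaned on single BORA tumours: the first was 0.09 without BORA replicate 1, and the second 0.01 without BORA replicate 3. Differences of single genes ran between -0.38 and 1.199 over 8 tumours and between -0.65 and 0.63 over 7. Among the 39 genes whose mean exceeded the negative control percentile, the medians were 0.23 and -0.10, against 0.11 and 0.09 for the 7217 clusters that bright. A 2-fold change in either direction lay outside the 95% interval for 33 of 56 genes over 8 tumours (58.9%, against 80.3% of all clusters). Over 7 tumours it lay outside for 52 of 56 (92.9%, against 87.4%), the exceptions being E2F8, MCM8, LIG1 and PRIM1. The median width of those intervals was 1.38 over 8 tumours and 0.99 over 7.

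**Figure D2:**
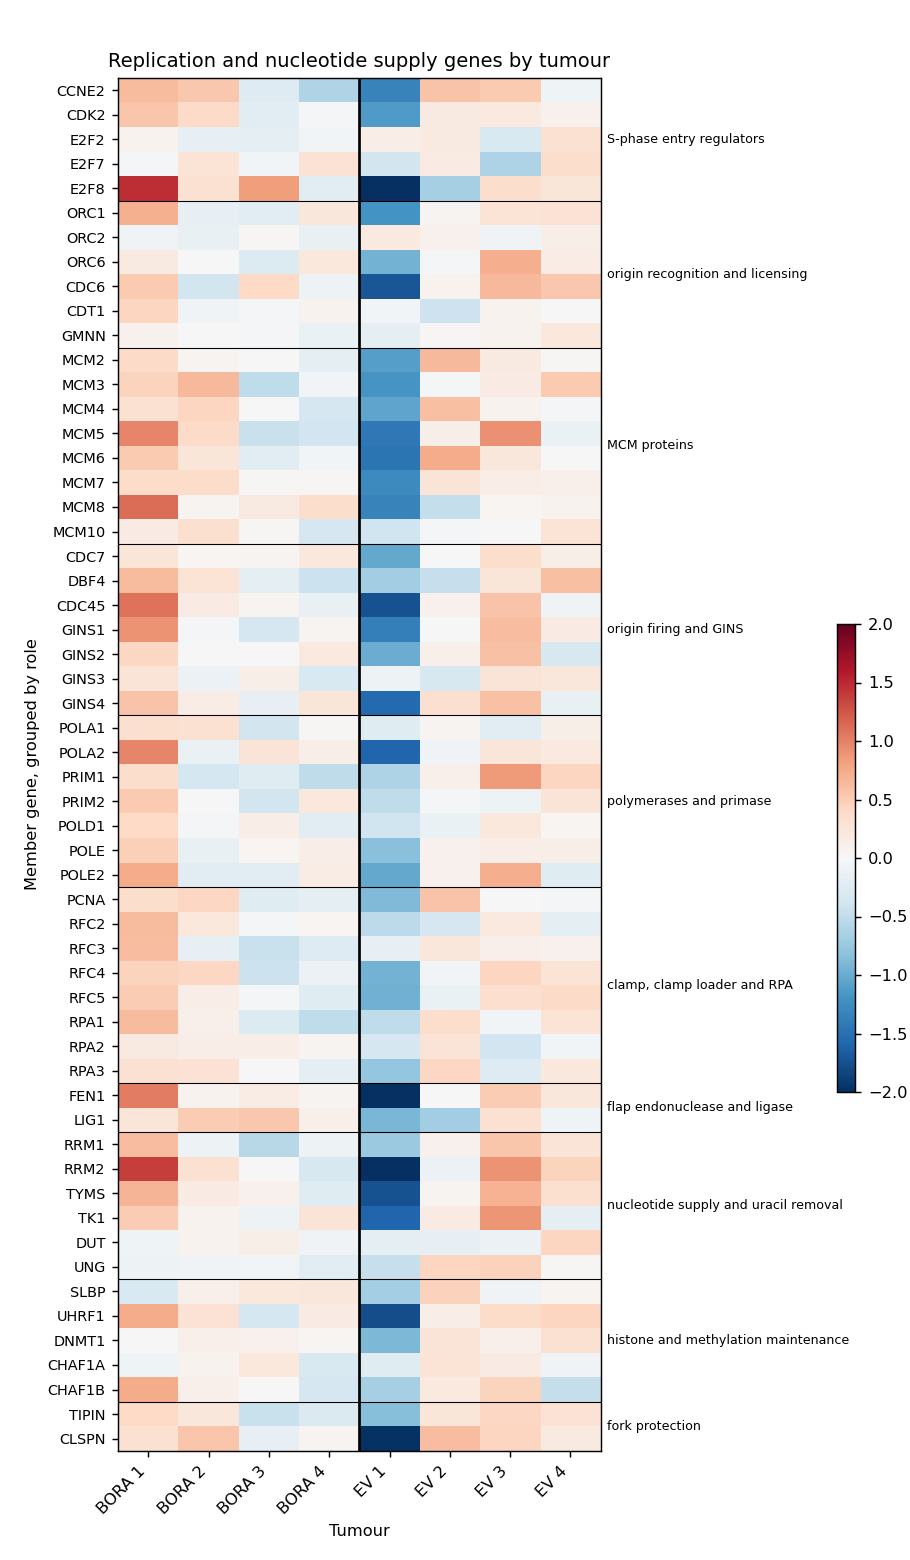
Log2 value of each of the 56 genes minus its mean over the 8 tumours, with genes in order of role down the page and BORA tumours 1 to 4 left of EV tumours 1 to 4; the colour scale runs over -2 to 2. The column of EV replicate 1 is low in nearly all roles, and that of BORA replicate 1 is the highest for 27 genes.

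EV replicate 1 held the lowest of the 8 values for 46 of the 56 genes (82.1%), against 22.2% of all clusters. Among genes brighter on average than the negative controls it did so for 31 of 39 (79.5%), against 34.3% of the clusters that bright. It lay below the mean of EV replicates 2 to 4 for 53 of the 56 genes, with a median difference of -1.14, against -0.04 over all clusters. BORA replicate 1 was the highest of the remaining 7 tumours for 27 genes, where it was the highest for 16.5% of all clusters. BORA replicates 2, 3 and 4 were the highest for 2, 1 and 0 genes (12.4%, 13.3% and 10.2% of all clusters), and EV replicates 2, 3 and 4 for 9, 11 and 6 (12.3%, 16.7% and 18.6%). The lowest of the 7 was most often BORA replicate 3 (17 genes, 16.0% of all clusters) or BORA replicate 4 (16 genes, 12.5%).

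The values of EV replicate 1 were uneven across the machinery, but its signal was above its own negative control percentile of 8.24 for only 20 of the 56 genes. Among those 20 it was lowest of the 8 tumours for 16, and it differed from the mean of EV replicates 2 to 4 by a median of -1.11. The lowest of the 20 were CDC6 at -2.13, TYMS at -2.10 and TK1 at -1.87. TYMS makes dTMP from dUMP. The other 36 genes were not above background there, so their differences carry no exact fold and no order. RRM2, the small ribonucleotide reductase subunit made in S phase, had a measured difference of -3.02 and was at least 3.75-fold lower, counted against that percentile. On the same footing FEN1 (-2.29) was at least 3.47-fold lower, UHRF1 (-2.08) at least 2.22-fold and CLSPN (-2.38) at least 1.54-fold. E2F8 (-2.29) gave no bound, since its mean in EV replicates 2 to 4 was itself below 8.24. At the other end stood POLA1, the catalytic subunit of the primase-coupled polymerase (-0.22), GINS3 (-0.15), CDT1 (0.07), E2F2 (0.08) and ORC2 (0.14). Of these 5 ORC2 alone was above background in EV replicate 1. ORC2 was the single gene for which EV replicate 1 was highest of the 8 tumours. CDT1 and E2F2 lay below the negative control percentile in all 8 tumours. By role, the median measured difference ran from -1.77 in fork protection (2 genes) to -0.76 in origin recognition and licensing. Neither fork protection gene was above background in EV replicate 1. Every other role also held genes that were not, so the roles carry no settled order. In the same tumour all 25 genes of the mitosis and proliferation list had their lowest value, with a mean of -1.65. That list averaged 0.80, 0.22, 0.21 and -0.21 in BORA tumours 1 to 4 and 0.00, 0.40 and 0.22 in EV tumours 2 to 4. Squamous markers were high in that tumour, as above, and what part their cells had in the low replication genes was not tested.

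**Figure D3:**
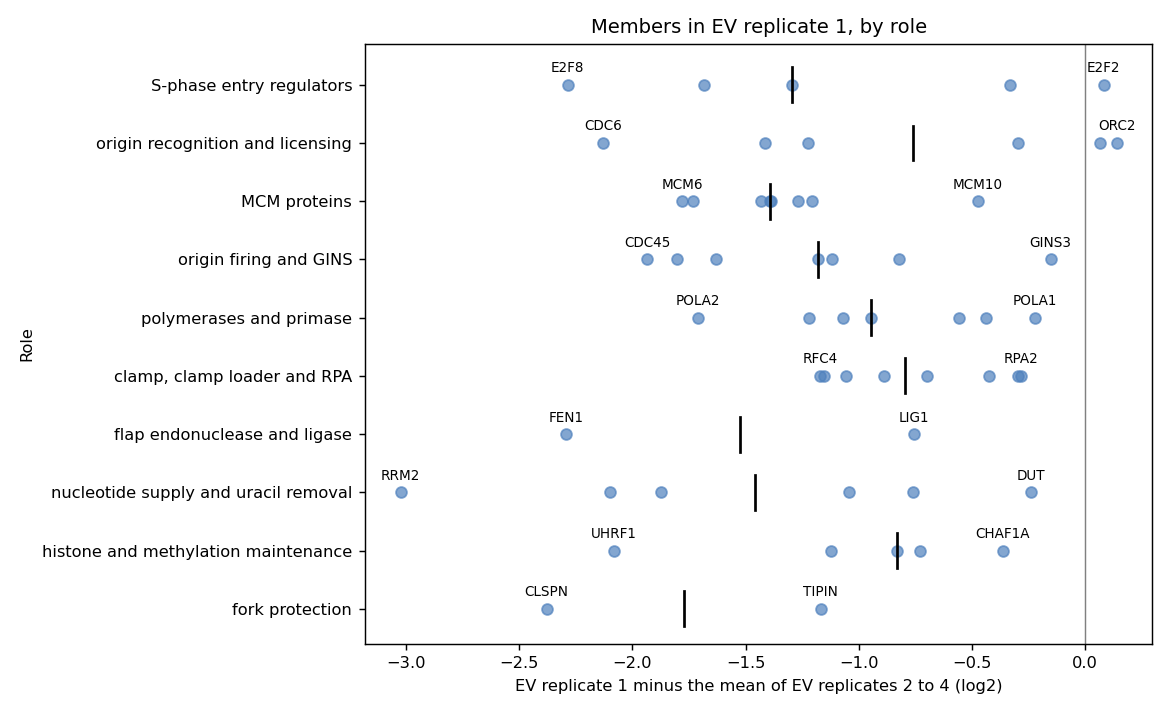
EV replicate 1 minus the mean of EV replicates 2 to 4 (log2 units) for each of the 56 genes, grouped by role, with a bar at the median of each role. Of the genes 53 lie below zero, and 36 were not above background in EV replicate 1, so the order of their points is not settled.

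Promoters were compared because these genes were low together in 1 tumour and E2F sites are a known shared feature of S-phase promoters. RefSeq windows (GRCh38.p14) of 250 bases before to 50 after the start were matched for 48 of the 56 genes. The E2F words searched on both strands were TTTGGCGC, TTTGCCGC, TTTCGCGC and TTTCCCGC, and a word on 1 strand can overlap a word on the other. At least 1 such word stood in 22 of 48 windows (45.8%), against 3.33% of 27305 windows of all genes. TTTCCCGC stood in 11 of them, TTTGGCGC in 8, TTTCGCGC in 6 and TTTGCCGC in 0. The CCAAT word, bound by NF-Y, stood in 26 of 48 (54.2%), against 35.7% of all windows. The word TTTGAA of the cell cycle homology region, a feature of mitotic genes, stood in 2 of 48 (4.17%), against 15.4%. The windows of all genes included genes outside the array's annotation and were not matched to the 48 in base composition. What part this had in these shares was not tested. Genes with an E2F word had a median of -1.21 in EV replicate 1 minus EV replicates 2 to 4 (22 genes, range -2.38 to 0.08), and those without one had -0.83 (26 genes, range -3.02 to 0.14). The ranges overlapped almost in full, and both rest in part on values not above background. For BORA minus EV over 7 tumours the medians were -0.10 and -0.08.

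The 4 windows below, of 150 bases before to 10 after the start, are the promoters of RRM2 and CLSPN, which had the most negative measured differences in EV replicate 1, and of ORC2 and E2F2, which had the most positive ones. Capitals mark an E2F word. RRM2 lies at chr2:10122589-10122748 (plus strand), CLSPN at chr1:35769969-35770128, ORC2 at chr2:200963651-200963810 and E2F2 at chr1:23531224-23531383 (all 3 minus strand).
RRM2: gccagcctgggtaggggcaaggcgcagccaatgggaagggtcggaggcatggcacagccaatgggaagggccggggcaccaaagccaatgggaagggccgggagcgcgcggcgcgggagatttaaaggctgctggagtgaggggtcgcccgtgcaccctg
CLSPN: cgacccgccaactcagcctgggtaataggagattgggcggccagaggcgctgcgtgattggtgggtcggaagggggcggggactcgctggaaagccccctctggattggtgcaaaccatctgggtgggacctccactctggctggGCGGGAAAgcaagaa
ORC2: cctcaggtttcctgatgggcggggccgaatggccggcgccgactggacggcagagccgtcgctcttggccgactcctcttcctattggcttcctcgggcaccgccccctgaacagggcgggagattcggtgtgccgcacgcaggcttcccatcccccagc
E2F2: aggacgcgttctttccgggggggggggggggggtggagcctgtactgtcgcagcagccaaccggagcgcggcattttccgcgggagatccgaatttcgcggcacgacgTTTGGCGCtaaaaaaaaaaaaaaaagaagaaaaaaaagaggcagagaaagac
RRM2 held no E2F word and 3 CCAAT words, counted on both strands. CLSPN held 1 E2F word, starting 5 bases before the start, and 3 CCAAT words. ORC2 held no E2F word and 1 CCAAT word, and E2F2 held 1 E2F word, starting 42 bases before the start, and 0 CCAAT words. RRM2 and ORC2 thus both lacked these E2F words in the window, which says only that these letters are not there.

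Among the S-phase entry regulators, E2F8, a repressor that E2F factors induce, had the widest spread. It measured 9.35, 8.17, 8.69 and 7.64 in BORA tumours 1 to 4, against 5.55, 7.19, 8.21 and 8.10 in EV tumours 1 to 4. BORA replicates 1 and 3 exceeded all EV tumours, and BORA replicates 2 and 4 lay within the EV range. Its difference of 1.199 was the highest of the 56 over 8 tumours (SE 0.58, limma adjusted p = 0.377) and it was 0.63 over 7 (SE 0.37, adjusted p = 0.457). The value over 7 was 0.31 without EV replicate 2 and 0.33 without BORA replicate 1. CCNE2, a cyclin that activates CDK2, measured 7.996, 7.91, 7.11 and 6.77 in BORA tumours, against 6.03, 7.94, 7.90 and 7.29 in EV tumours. Both groups held values near 8, and the differences were 0.16 (SE 0.44) over 8 and -0.26 (SE 0.30) over 7. E2F2, an activator of S-phase genes, was dim at 5.24, 5.01, 4.98 and 5.11 in BORA tumours and 5.30, 5.33, 4.86 and 5.46 in EV tumours. It differed by -0.15 (SE 0.17) and -0.13 (SE 0.18), and the groups overlapped. CDK2 and E2F7 had differences of 0.33 and 0.23 over 8 and of 0.01 and 0.15 over 7.

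**Figure D4:**
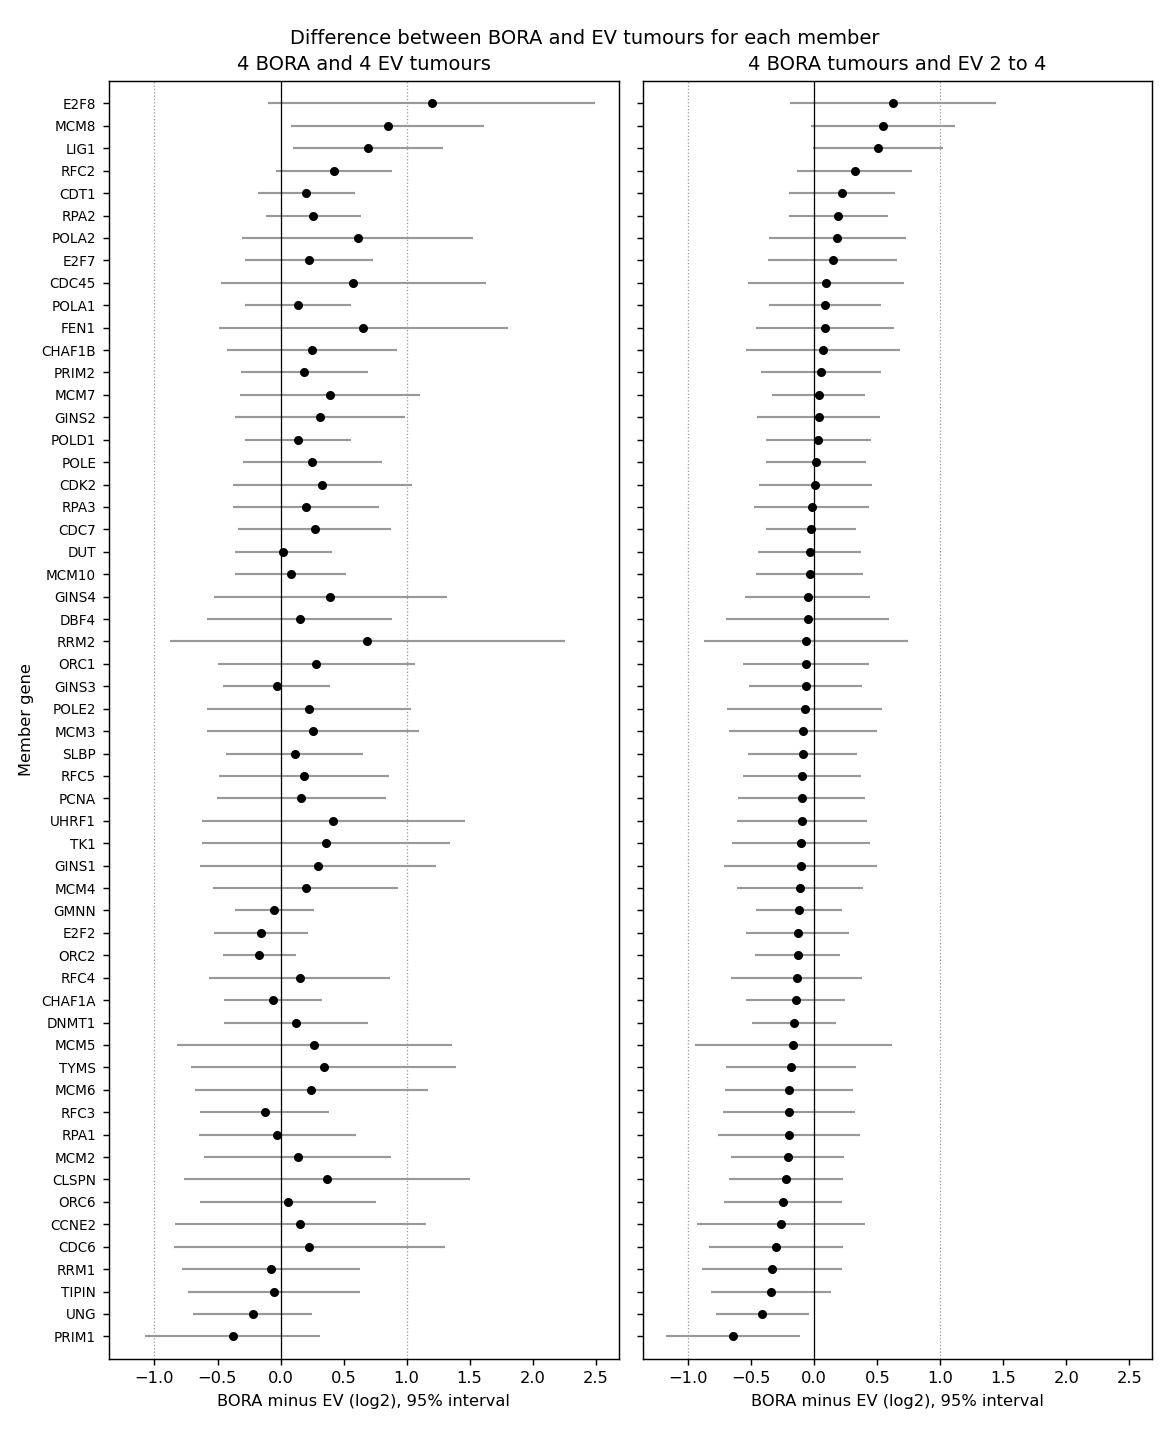
BORA minus EV of each of the 56 genes in log2 units with its 95% interval from limma, over 8 tumours (left) and over the 7 without EV replicate 1 (right); dotted lines stand at -1 and 1. On the left 45 points lie above zero and on the right 18, and intervals are narrower on the right.

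Of the genes that recognise and license origins, ORC2, a core subunit of the origin recognition complex, was among the steadiest. It measured 9.86, 9.78, 9.95 and 9.78 in BORA tumours and 10.12, 10.02, 9.86 and 10.04 in EV tumours. The ranges met between 9.86 and 9.95, and the differences were -0.17 (SE 0.13, adjusted p = 0.567) over 8 and -0.13 (SE 0.15) over 7. CDC6, which loads the MCM helicase onto origins, measured 10.58, 9.69, 10.46 and 9.96 in BORA tumours, against 8.34, 10.13, 10.70 and 10.59 in EV tumours. EV replicate 1 was far below the rest, and the difference was 0.23 (SE 0.48) with it and -0.30 (SE 0.24, adjusted p = 0.59) without it. ORC6, the smallest subunit of the complex, measured 7.04, 6.86, 6.59 and 7.07 in BORA tumours and 5.91, 6.82, 7.59 and 7.002 in EV tumours, with differences of 0.06 and -0.25. CDT1, the partner of CDC6 in helicase loading, measured 4.71, 4.21, 4.25 and 4.35 in BORA tumours and 4.23, 3.86, 4.35 and 4.27 in EV tumours, with differences of 0.20 and 0.22. Both genes were below the negative control percentile throughout. Geminin (GMNN), the inhibitor of CDT1, measured 10.01, 9.91, 9.88 and 9.79 in BORA tumours and 9.73, 9.94, 9.99 and 10.13 in EV tumours. It was nearly level, at -0.05 (SE 0.14) and -0.12 (SE 0.15), with 95% intervals of -0.36 to 0.27 and -0.46 to 0.22. ORC1, the subunit that cells renew in each cycle, differed by 0.28 over 8 and -0.07 over 7.

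All 8 MCM genes had their lowest value in EV replicate 1, and all 8 had a positive difference over 8 tumours, against 2 of 8 over 7. MCM8, a helicase that acts in recombination and is not part of the MCM2-7 ring, measured 10.81, 9.74, 9.86 and 10.04 in BORA tumours, against 8.36, 9.21, 9.73 and 9.76 in EV tumours. All 4 BORA values but that of replicate 2 exceeded the EV values, and replicate 2 fell short by a narrow gap. The difference was 0.85 over 8 tumours (SE 0.34, interval 0.08 to 1.62, limma adjusted p = 0.31) and 0.55 over 7 (SE 0.26, adjusted p = 0.346), or 0.32 without BORA replicate 1 as well. MCM5, a ring subunit, measured 10.30, 9.70, 8.86 and 8.93 in BORA tumours, against 7.88, 9.43, 10.24 and 9.18 in EV tumours, with differences of 0.27 (SE 0.49) and -0.17 (SE 0.36). BORA replicate 1 and EV replicate 3 were the highest, nearly level with each other. MCM7, another ring subunit, measured 9.89, 9.88, 9.54 and 9.54 in BORA tumours, against 8.25, 9.78, 9.65 and 9.62 in EV tumours. Apart from EV replicate 1 its values lay within a narrow band, and the difference was 0.39 (SE 0.32) with that tumour and 0.04 (SE 0.17) without it. The ring subunits MCM2, MCM3, MCM4 and MCM6 and the initiation factor MCM10 had differences of 0.08 to 0.26 over 8 tumours and of -0.21 to -0.04 over 7.

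Among the genes of origin firing, CDC45, the helicase cofactor that joins the MCM ring with GINS, measured 8.89, 7.97, 7.87 and 7.66 in BORA tumours, against 6.07, 7.90, 8.38 and 7.73 in EV tumours. BORA replicate 1 was highest, and the other 3 BORA tumours lay within the range of EV replicates 2 to 4 or just below it. The difference was 0.58 (SE 0.47, adjusted p = 0.587) over 8 and 0.10 (SE 0.28) over 7. CDC7, the kinase that phosphorylates the MCM ring, measured 6.82, 6.63, 6.63 and 6.79 in BORA tumours and 5.56, 6.60, 6.94 and 6.70 in EV tumours, below the negative control percentile throughout. Its differences were 0.27 (SE 0.27) and -0.03 (SE 0.16). Its activator DBF4 and the 4 GINS genes had differences of -0.03 to 0.40 over 8 and of -0.11 to 0.03 over 7.

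The polymerase and primase genes held the lowest difference of the 56 in both sets. PRIM1, the catalytic primase subunit that makes RNA primers, measured 8.33, 7.63, 7.74 and 7.47 in BORA tumours, against 7.37, 8.08, 8.84 and 8.40 in EV tumours. Of the BORA values 3 lay below EV replicates 2 to 4, and that of BORA replicate 1 did not. The difference was -0.38 over 8 tumours (SE 0.31, adjusted p = 0.59), or -0.16 without EV replicate 3, and -0.65 over 7 (SE 0.24, interval -1.18 to -0.11, limma adjusted p = 0.244). POLA2, the accessory subunit of the polymerase that extends those primers, measured 9.29, 8.17, 8.56 and 8.42 in BORA tumours, against 6.72, 8.23, 8.55 and 8.50 in EV tumours. BORA replicate 1 was highest, and the other 3 BORA tumours were level with EV replicates 2 to 4. The difference was 0.61 (SE 0.41, adjusted p = 0.515) with EV replicate 1 and 0.18 (SE 0.25) without it. The other 5 (POLA1, PRIM2, POLD1, POLE and POLE2) had differences of 0.14 to 0.25 over 8 and of -0.08 to 0.08 over 7. PRIM1 and PRIM2, the subunits of 1 enzyme, thus had values on opposite sides of zero in both sets, and the contrast between them was not tested.

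In the clamp, clamp loader and RPA group all 8 genes had 95% intervals within 2-fold in both sets. RFC2, a clamp loader subunit, measured 8.99, 8.57, 8.34 and 8.40 in BORA tumours, against 7.83, 8.03, 8.56 and 8.17 in EV tumours. Only EV replicate 3 reached the BORA range, and the difference was 0.43 (SE 0.21, adjusted p = 0.377) over 8 and 0.32 (SE 0.21, adjusted p = 0.498) over 7. RFC3, another loader subunit, measured 9.39, 8.61, 8.32 and 8.51 in BORA tumours and 8.61, 8.99, 8.88 and 8.85 in EV tumours. BORA replicate 1 was above all EV tumours and the other 3 BORA tumours were at or below them, with differences of -0.13 (SE 0.23) and -0.20 (SE 0.24). RPA2, which coats single-stranded DNA with RPA1 and RPA3, measured 8.24, 8.20, 8.20 and 8.12 in BORA tumours and 7.71, 8.31, 7.68 and 8.002 in EV tumours. The BORA values were tightly grouped and lay within the EV range, with differences of 0.26 (SE 0.17) and 0.19 (SE 0.18). PCNA, the sliding clamp itself, lay at 10.78 to 11.44 in BORA tumours, at 10.15 in EV replicate 1 and at 10.99 to 11.60 in the other EV tumours, with differences of 0.16 and -0.10.

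FEN1, the nuclease that trims flaps between Okazaki fragments, measured 10.81, 9.87, 9.94 and 9.84 in BORA tumours, against 7.74, 9.80, 10.29 and 10.01 in EV tumours. BORA replicate 1 was high and EV replicate 1 low, while the remaining 6 tumours lay close together. The difference was 0.66 (SE 0.51) over 8 and 0.08 (SE 0.25) over 7. LIG1, the ligase that seals those fragments, had the smallest adjusted p of the 56 over 8 tumours. It measured 6.08, 6.33, 6.37 and 5.93 in BORA tumours, against 4.92, 5.14, 6.14 and 5.74 in EV tumours, all below the negative control percentile. EV replicate 3 lay within the BORA range, and the difference was 0.69 over 8 (SE 0.27, interval 0.10 to 1.29, limma adjusted p = 0.294) and 0.50 over 7 (SE 0.23, interval -0.01 to 1.02, adjusted p = 0.336). Without EV replicate 2 the value over 7 was 0.24.

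**Figure D5:**
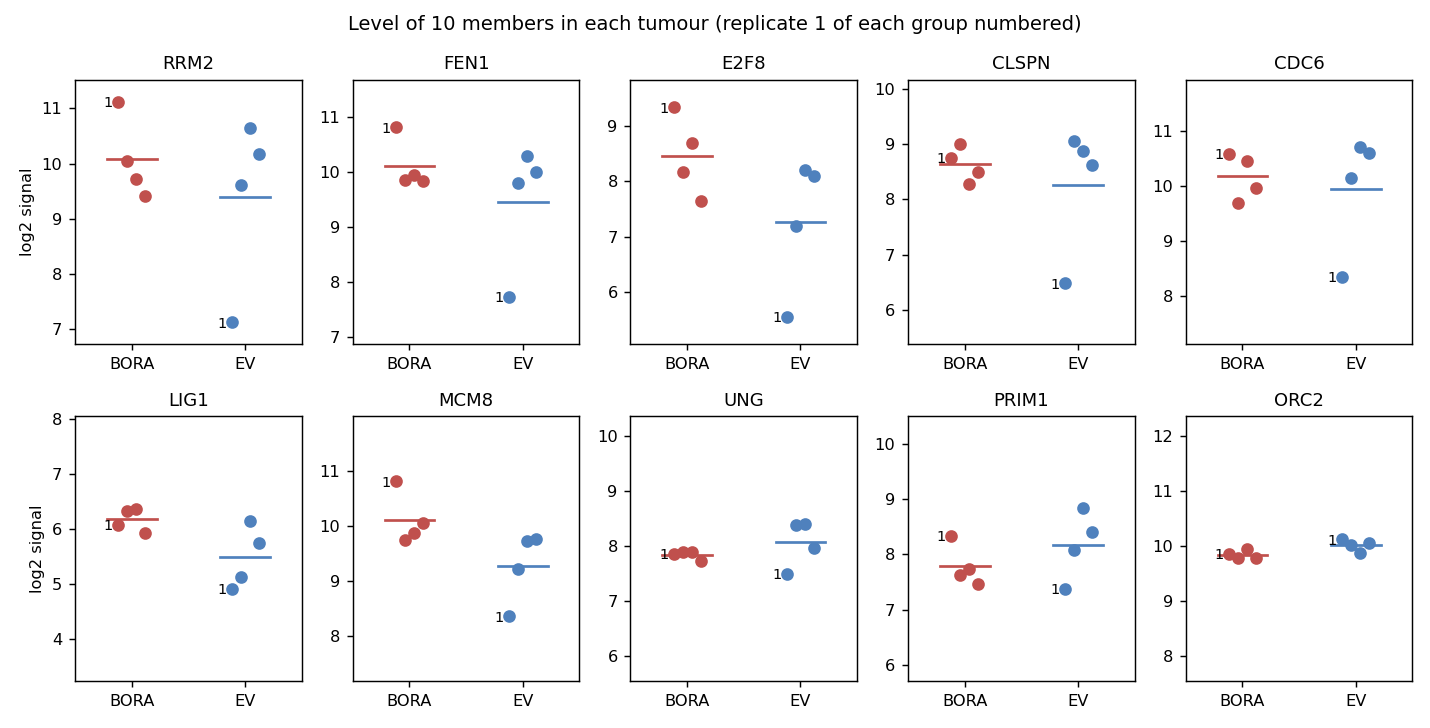
Log2 values of 10 of the genes in each tumour, with BORA left of EV, a line at each group mean, and replicate 1 of each group numbered. In RRM2, FEN1, CLSPN and CDC6 the low EV mean comes with the low point of EV replicate 1, whereas in PRIM1 and UNG the other 3 EV tumours lie above most or all BORA tumours.

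All 6 genes of nucleotide supply and uracil removal had their lowest value in EV replicate 1, and all 6 had a negative difference over 7 tumours. UNG, the glycosylase that removes uracil from DNA, measured 7.85, 7.89, 7.90 and 7.73 in BORA tumours, against 7.495, 8.38, 8.41 and 7.97 in EV tumours. Without EV replicate 1 each BORA value lay below each EV value, and the difference was -0.41 (SE 0.17, interval -0.78 to -0.04, limma adjusted p = 0.282). With that tumour it was -0.22 (SE 0.21, adjusted p = 0.642). RRM2 measured 11.12, 10.04, 9.73 and 9.42 in BORA tumours, against 7.12, 9.62, 10.64 and 10.18 in EV tumours. BORA replicate 1 and EV replicate 1 held the extremes, and the others overlapped. The difference was 0.69 (SE 0.70) over 8 and -0.07 (SE 0.37) over 7, with an interval of -0.87 to 2.25 that became -0.88 to 0.74. RRM1, the large subunit of ribonucleotide reductase, measured 13.73, 13.02, 12.57 and 13.02 in BORA tumours, against 12.38, 13.21, 13.67 and 13.38 in EV tumours. Apart from BORA replicate 1 and EV replicate 1 the BORA values were the lower ones, with differences of -0.07 (SE 0.31) over 8 and -0.34 (SE 0.25, adjusted p = 0.566) over 7. TYMS, the salvage kinase TK1 and the dUTPase DUT had differences of 0.02 to 0.36 over 8 and of -0.18 to -0.04 over 7.

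Among the genes of histone supply and methylation maintenance, UHRF1, which brings DNMT1 to newly copied DNA, measured 9.82, 9.36, 8.73 and 9.24 in BORA tumours, against 7.31, 9.22, 9.44 and 9.51 in EV tumours. Apart from EV replicate 1 the groups overlapped. The difference was 0.42 (SE 0.47, adjusted p = 0.696) over 8 and -0.10 (SE 0.23) over 7. DNMT1, the maintenance methyltransferase, measured 8.86, 8.96, 8.94 and 8.89 in BORA tumours, against 7.95, 9.11, 8.96 and 9.15 in EV tumours. The BORA values were tightly grouped, and the differences were 0.12 (SE 0.26) and -0.16 (SE 0.15). CHAF1A, CHAF1B (both of the CAF-1 histone chaperone) and SLBP, which binds histone mRNA, had differences of -0.06 to 0.25 and of -0.15 to 0.07. Of the pair that protects forks, CLSPN, the adaptor through which ATR activates CHK1, measured 8.76, 9.01, 8.28 and 8.50 in BORA tumours, against 6.48, 9.06, 8.88 and 8.63 in EV tumours. The BORA values lay within the EV range. The difference was 0.37 (SE 0.51, adjusted p = 0.757) over 8 and -0.22 (SE 0.20) over 7. TIPIN, the partner of Timeless at forks, measured 6.74, 6.57, 5.91 and 6.06 in BORA tumours and 5.495, 6.59, 6.76 and 6.63 in EV tumours. BORA replicates 2, 3 and 4 lay below EV replicates 2 to 4, replicate 2 by a narrow gap, and the differences were -0.05 (SE 0.31) and -0.34 (SE 0.22, adjusted p = 0.491).

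Of the 56 genes 20 exceeded the negative control percentile in all 8 tumours and 13 in none. The 13 were E2F2, ORC6, CDT1, MCM6, MCM10, CDC7, DBF4, GINS2, POLD1, POLE2, RPA3, LIG1 and TIPIN. For these a difference on the array may understate one in RNA.

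Related genes outside the 56 were counted in 4 further lists with 104 of 116 genes measured, and limma called 0 of them higher and 0 lower in either set of tumours. Other replication genes (37 measured) had a median difference of 0.16 over 8 tumours and 0.06 over 7. Over 7 tumours the smallest p among them in each direction belonged to POLD4, the smallest subunit of polymerase delta, at 1.09 and 0.85 (adjusted p = 0.175 and 0.114, limma), and to ATAD5, which unloads PCNA, at -0.21 and -0.76 (adjusted p = 0.852 and 0.105). POLD4 measured 9.17, 9.37, 9.78 and 9.62 in BORA tumours, against 7.70, 8.94, 8.75 and 8.20 in EV tumours, without overlap. POLE4, the smallest subunit of polymerase epsilon, had 0.67 and 0.57 (adjusted p = 0.216 and 0.219). ATAD5 measured 8.28, 8.02, 7.58 and 7.85 in BORA tumours, against 6.50, 8.75, 8.75 and 8.60 in EV tumours, so that the groups separated once EV replicate 1 was left out. Of these 37 genes, 2 were higher and 1 lower without overlap over 8 tumours, and 2 were higher and 2 lower over 7. Over all clusters the share without overlap in either direction was 9.36% over 8 and 14.3% over 7. Other nucleotide metabolism genes (32 measured) had medians of 0.08 and 0.06, with DGUOK, the mitochondrial deoxyguanosine kinase, at 0.62 and 0.56 (adjusted p = 0.277 and 0.289) and CTPS2, a CTP synthase, at -0.39 and -0.56 (adjusted p = 0.481 and 0.261). Other E2F and cyclin genes (19 measured) had medians of 0.08 and 0.04. E2F4, which is known mainly as a repressor in resting cells, had 0.66 in both sets (adjusted p = 0.188 and 0.152). E2F1, an activator, had 0.94 and 0.58 (adjusted p = 0.294 and 0.274), and its partner TFDP1 had 0.43 and 0.62 (adjusted p = 0.373 and 0.119). Histone genes (16 measured) had medians of 0.30 and -0.12, the same turn of sign as the replication genes, and averaged -1.03 in EV replicate 1. H3C10 and H2AC6, a histone H3 and a histone H2A gene, lay below the negative control percentile in all tumours, at 0.38 and -0.38 over 8 and 0.40 and -0.40 over 7 (adjusted p of 0.309 to 0.352).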

How the data were processed

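RNA of 8 tumours (4 BORA, 4 EV; groups and replicate numbers from the labels) was analysed from the deposited table of 1 value per probe set and array. The deposited values were taken to be log2 signals because of their range, with the base not stated by any label, so folds hold only on that reading. Per the submitters' processing notes the authors ran Affymetrix Expression Console. For its version, its background step and its normalization, nothing was given in the sources used here. Which array was run is uncertain, because the series text names the Human Gene 1.0 ST design and the identifiers belong to another. Human probes can also read mouse RNA in part. Of 24351 table entries, 17709 had 1 gene symbol in the supplied annotation, and 3739 clusters stayed unnamed. No pair of arrays shared more than 0.0113% of identical values.

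All 17709 clusters were fitted with limma (lmFit, eBayes; no covariates, no filter, no further normalization), BORA minus EV, over 8 arrays and over 7 without EV replicate 1. A call needed a Benjamini-Hochberg adjusted p under 0.05. No scan date is given, so no batch was tested. The number of arrays limits precision. On simulated data with 17709 clusters the fit recovered 38.8% of log2 changes of 1 and 95.5% of changes of 2 over 8 arrays. Over 7 it recovered 59.7% and 98.5%. The simulated noise was independent and alike in all arrays, with no array that stood apart. These shares need not hold for the 56 genes, whose median interval width over 8 tumours was 1.38, against 0.89 for all clusters.

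The 56 genes, the role groups, the other lists and the rule for named genes were chosen with earlier results of these data known. The rule gave tumour values for the 6 genes with the smallest p in each direction and set, the smallest p of each role over 8 arrays, the 5 widest and 5 narrowest spreads over 7 arrays and the 5 furthest below in EV replicate 1 (27 genes in all). For the other lists it gave the 2 smallest p in each direction, of which the text names some. Alternatives were the replicate block, quantile normalization, median centring, an intensity trend with robust fitting, array weights, a filter on dim clusters, a threshold of 0.1, the mean of a symbol's clusters and leaving out each array. R 4.3.3, limma 3.58.1, statmod 1.5.0 and Python 3.11.15 were used.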

Additional observations from a re-analysis of the deposited data

Results flagged for a closer look

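Within groups of 4 tumours, a single value was set apart from the other 3 by Dixon's criterion in 7 of 58 groups examined (27 named genes, the BORA transcript and the mean over the 56 genes, in each group). Chance marks about 1 in 20 groups, but the 7 cannot be read against that share: some of the named genes were picked for a low value in EV replicate 1 or for a small spread in the other tumours, and 6 of the 7 come from that 1 array. In BORA tumours FEN1 was set apart upward in replicate 1, at 10.81. In EV tumours replicate 1 was set apart downward for CLSPN at 6.48, DNMT1 at 7.95, MCM7 at 8.25, TIPIN at 5.495, UHRF1 at 7.31 and the mean over the 56 genes at -0.95. Over all 56 genes the criterion marked 1 value in BORA tumours and 9 in EV tumours. It was not applied to all clusters, so these counts cannot be read as particular to the replication genes. EV replicate 1 was the lowest of the 8 tumours for 22.2% of all clusters and the highest for 20.6%.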

How the results depend on the processing

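No replication gene passed the threshold in any setting run, in either set of tumours, and the smallest adjusted p of a named gene was 0.19 over 8 and 0.134 over 7 tumours. The replication genes' median difference lay between 0.04 (array weights) and 0.23 over the settings that kept all 8 tumours, and between -0.18 and -0.07 over those that kept all 7. Leaving out 1 tumour gave 0.09 (without BORA replicate 1) to 0.32 over 8, apart from -0.08 without EV replicate 1. Over 7 it gave -0.17 (without BORA replicate 1) to 0.01 (without BORA replicate 3). With the replicate block the median was 0.22 over 8, where balanced blocks leave each difference as it was. Over 7 it was -0.17, which only repeats the value without BORA replicate 1, a tumour with no partner there. Deviations of same-numbered tumours from their group means had correlations of -0.113, 0.039, 0.071 and -0.019. Of the 4 BORA tumours 1 correlated best with its own number. The EV mean included EV replicate 1, so these correlations cannot tell whether a shared number stands for a shared batch.

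For named genes, 27 of 396 alternative values over 8 tumours and 27 of 371 over 7 turned in sign, and none crossed the threshold. These totals include settings that could not turn a sign, so they overstate how steady the signs were. The intensity trend with robust fitting, the mean of a symbol's clusters and the filter on dim clusters leave the difference itself unchanged. So does the replicate block over 8 tumours. With array weights over 8 tumours the values turned to -0.21 (CCNE2), -0.089 (CDC6), -0.079 (CLSPN), -0.071 (DNMT1), -0.029 (MCM5) and -0.087 (ORC6). Over 7 tumours weights gave 0.002 for CDC7 and 0.016 for RRM2. The replicate block over 7 tumours gave -0.17 for CDC45, -0.15 for FEN1, -0.025 for MCM7 and -0.042 for POLA2. These are the values without BORA replicate 1, which has no partner there and so drops out of the difference. Quantile normalization gave -0.03 for FEN1, -0.067 for MCM7 and 0.01 for E2F2, and median centring -0.015 for MCM7. The cause of the turns outside the block was not tested.

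Leaving out 1 tumour over 8, the differences ran from -0.26 to 0.39 (CCNE2), -0.31 to 0.48 (CDC6), -0.025 to 0.43 (CDC7), -0.22 to 0.64 (CLSPN), -0.16 to 0.24 (DNMT1), -0.12 to 0.012 (GMNN), -0.17 to 0.62 (MCM5), -0.25 to 0.31 (ORC6), -0.35 to 0.002 (RFC3), -0.34 to 0.10 (RRM1), -0.066 to 1.11 (RRM2), -0.34 to 0.086 (TIPIN) and -0.10 to 0.63 (UHRF1). Over 7 they ran from -0.17 to 0.28 (CDC45), -0.098 to 0.072 (CDC7), -0.15 to 0.21 (FEN1), -0.45 to 0.14 (MCM5), -0.025 to 0.094 (MCM7), -0.042 to 0.33 (POLA2), -0.41 to 0.18 (RRM2) and -0.28 to 0.085 (UHRF1). Among values that kept their sign, leaving out 1 tumour gave 0.31 to 0.90 for E2F8, 0.24 to 0.74 for LIG1, 0.32 to 0.67 for MCM8, 0.18 to 0.47 for RFC2, -0.48 to -0.14 for CDC6 and -0.55 to -0.16 for RRM1 over 7, and -0.65 to -0.16 for PRIM1 over 8.

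Of all clusters, 18 were called higher and 0 lower over 8 tumours, against 77 and 14 over 7. The block gave 1 higher over 8 and 5 lower over 7. Weights gave 43 higher and 5 lower over 8 and 24 lower over 7, and the intensity trend 1 lower over 8 and 28 lower over 7. Without dim clusters there were 9 higher over 8 and 34 higher and 6 lower over 7. Median centring gave 46 higher over 7. At a threshold of 0.1 there were 46 higher and 3 lower over 8 and 203 and 74 over 7. Leaving out 1 tumour gave 1 to 77 higher and 0 to 14 lower over 8, and 24 to 106 higher and 1 to 46 lower over 7.

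Limits are the small number of arrays, the unstated log base, the array that stood apart within the EV group, and 13 replication genes at or below the level of negative controls, in which a difference may be compressed.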
